A study of Mus musculus with 20 samples.

Results

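Vitamin E was given to mice on the CL diet, and the livers of the 5 CL + VE mice were compared with those of the 5 CL mice. These 10 arrays, chosen by their labels, are part of a series of 20 arrays, 1 per mouse. All animals were male C57BL/6J mice, 7 weeks old when the diets began and kept on them for 12 weeks, with a 2 h fast before liver collection. The CL + VE diet was the CL diet with vitamin E at 0.02%, and the CL diet itself took 60% of its calories from fat and contained sodium cholate at 0.5% and cholesterol at 1.25%. The series also holds 5 CL + AX mice, given astaxanthin at 0.02% in the CL diet, and 5 NC mice on normal chow. The diet induces fatty liver with inflammation and fibrosis without any genetic change, and every group used the same inbred strain. The labels of individual arrays spell the strain C56BL/6J, and the treatment description spells it C57BL/6J.

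Vitamin E is a group of lipid-soluble antioxidants, of which α-tocopherol is the form kept in the body. The liver takes it up with lipoprotein remnants, and the α-tocopherol transfer protein, encoded by Ttpa, returns it to the circulation with newly secreted lipoproteins. Excess vitamin E is shortened from its side chain, a path that begins with ω-hydroxylation by cytochromes P450 of the CYP4F family. The immediate early genes treated further on encode transcription factors, phosphatases and mRNA-decay proteins whose transcripts appear and disappear quickly after hormones, cytokines or handling. Several of them are switched on through a cyclic AMP response element, TGACGTCA, near the start of transcription.

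Levels are log2 signals after quantile normalization, and a log2 fold change is the CL + VE mean minus the CL mean. Each gene was read from its brightest probe set. No probe set of 45037 passed an adjusted p of 0.05 in limma, in either direction, and the smallest adjusted p was 0.121. Without adjustment, 1675 had p under 0.05 and higher signals in CL + VE livers, 3.72% of those tested, and 1737 had lower ones, 3.86%. The 5 values of CL + VE and the 5 of CL did not overlap in 1.73% of probe sets. Read by gene, 883 of 18193 genes were higher, 4.85%, and 491 were lower, 2.70%. The methods' t-test gave 1555 probe sets higher and 1524 lower at that p, and 0 after the Benjamini-Hochberg adjustment. The values of CL + VE against CL below are therefore measured differences that neither of these tests called across the whole array. Calls made under another setting, or against CL + AX, are given with that setting or comparison. With 5 arrays a group the median standard error (SE) of a gene's log2 fold change was 0.23, and 0.13 for genes whose mean signal was at or above the median of all probe sets. The split of higher and lower probe sets rests on the scaling: of those at an unadjusted p under 0.05, 49.1% were higher after quantile normalization, 62.5% after median centring, 41.5% after trimmed-mean scaling and 5.63% with the signals as deposited.

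Markers of the liver's main cell type were at high levels in both groups. The 27 measured hepatocyte markers had a mean log2 signal of 12.32 ± 0.08 in CL + VE livers and 12.31 ± 0.05 in CL livers (SD, n = 5 each), and none of the 27 had an unadjusted p under 0.05. Adipocyte and pancreas markers, a sign of neighbouring tissue, lay at 2.58 ± 0.56 in CL + VE livers and 2.49 ± 0.47 in CL livers.

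Of 14 control measures of the arrays, none had an adjusted p under 0.05, and the smallest Benjamini-Hochberg value was 0.111, for the Actb 3′ to 5′ ratio. The arrays carry control probe sets at the 3′ and 5′ ends of Actb, and the ratio of both signals tells how evenly the RNA was copied along its length. The Actb log2 ratio was 1.51, 1.48, 1.36, 1.32 and 1.46 in CL + VE arrays, against 1.19, 1.01, 1.25, 1.14 and 1.13 in CL arrays. The groups did not overlap, with means of 1.43 ± 0.08 in CL + VE and 1.14 ± 0.09 in CL, and the exact two-sided permutation test gave p = 0.00794, the smallest that 5 against 5 arrays allow. For Gapdh the ratios were −0.033 ± 0.12 in CL + VE and −0.168 ± 0.062 in CL and overlapped (exact permutation p = 0.0635). The median deposited signal was 18.5 ± 1.8 in CL + VE arrays and 22.4 ± 2.2 in CL arrays (exact permutation p = 0.0317). The CL + AX arrays overlapped with the CL + VE arrays in neither measure. Their Actb log2 ratios were 1.07 to 1.23, and their median signals were 26.4 to 27.7, against 17.0 to 20.7 in CL + VE. Over the 4 spiked bacterial RNAs, whose ratios are set during labelling, the smallest exact permutation p between CL + VE and CL was 0.294. The NC arrays stood apart in some controls. For Dap, 1 of the spiked RNAs, their 3′/5′ log2 ratios were 2.76 to 3.11, against 0.760 to 1.81 on all other arrays. For Gapdh they were 0.382 to 0.779, against −0.259 to 0.112. The part of these differences in the NC levels given below was not tested.

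The direction of a difference also went with the kind of probe set. Among genes read at or above the median signal, 5.91% of brightest probe sets were higher at an unadjusted p under 0.05 and 3% were lower. The further probe sets of the same genes, often placed elsewhere on the transcript or on another isoform, ran the other way, with 3.52% higher and 7.46% lower. Probe sets that name no gene had 3.84% higher and 5.86% lower. The part of the unequal 3′/5′ ratios in these shares was not tested. A gene's value below is that of 1 probe set, and for genes given liver by liver it is said where further probe sets had the opposite sign.

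**Figure D1:**
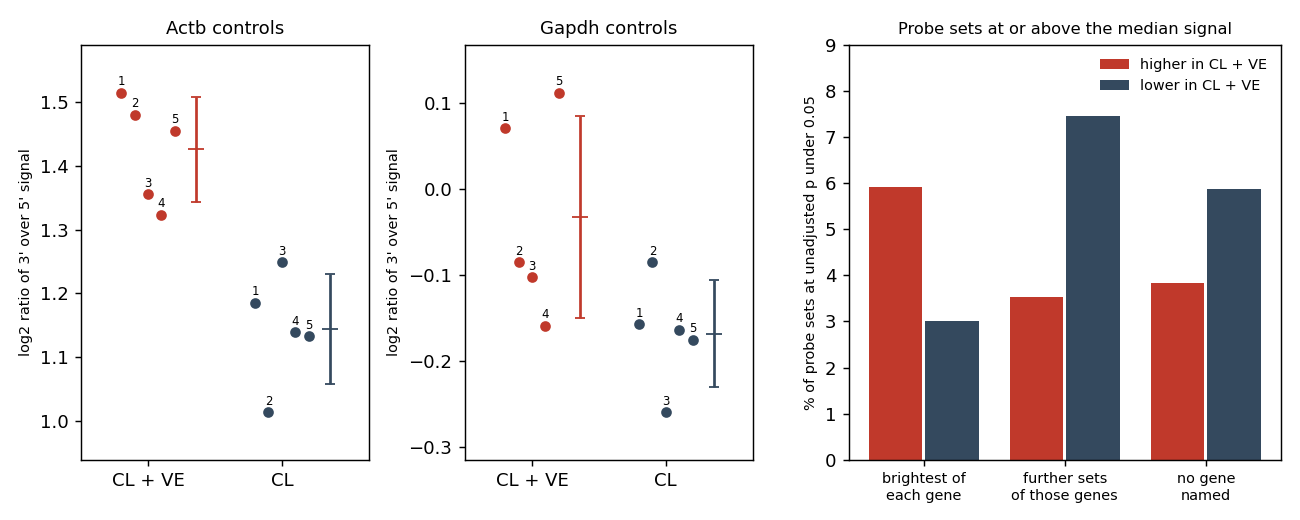
Left and middle, the log2 ratio of 3′ over 5′ signal of the Actb and Gapdh controls for each array, numbered by replicate, with mean and SD beside the points. The Actb ratios of the 5 CL + VE arrays, 1.32 to 1.51, all lie above those of the 5 CL arrays, 1.01 to 1.25. Right, the percentage of probe sets at an unadjusted p under 0.05, higher or lower in CL + VE, where brightest probe sets lean to higher and further probe sets to lower.

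The genes with the smallest p in each direction are given next, the lower ones first. Zfp36l2, which encodes an mRNA-decay protein that binds AU-rich elements, had the smallest p of all genes. Its log2 signal was 9.14, 9.24, 8.83, 9.13 and 10.21 in CL + VE livers, against 10.45, 10.54, 9.89, 10.26 and 10.58 in CL livers. CL + VE replicate 5 lay among the CL livers and the other 4 lay below all of them. The log2 fold change was −1.04 (SE 0.19, adjusted p = 0.121 in limma), and all 3 of its probe sets had this sign. The further ones were dim, with mean log2 signals of 3.17 and 1.23 against a median of 4.21 over all probe sets. Their log2 fold changes were −0.21 and −0.66, so the value rests on the brightest. Without CL + VE replicate 5, the liver that lay among the CL livers, Zfp36l2 passed the adjusted p in limma (−1.26, adjusted p = 0.000655). Leaving out any other single liver gave adjusted p values of 0.115 to 0.271. With all livers the methods' t-test gave an adjusted p of 0.585. In limma, array weights gave 0.0461 and a replicate block 0.0156. It averaged 10.35 in CL + AX livers and 9.25 in NC livers, and the difference of CL + VE from CL + AX was −1.04 (adjusted p = 0.0785).

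Maf, which encodes a basic leucine zipper transcription factor, read 9.64, 9.69, 9.79, 9.62 and 9.66 in CL + VE livers, against 10.25, 9.93, 10.46, 10.41 and 10.12 in CL livers. The groups did not overlap, and the CL + VE livers spanned a far narrower range than the CL livers. The log2 fold change was −0.55 (SE 0.10, adjusted p = 0.121), with 4 of 6 probe sets of that sign. The next probe sets by brightness had 0.028, −0.038 and −0.063, and the dimmest had −0.59 and 0.60. Over all 18193 genes, every CL + VE value lay below every CL value in 101, 0.555%, and above in 189, 1.04%.

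G0s2, whose protein inhibits the triglyceride lipase ATGL at the lipid droplet, read 10.60, 9.83, 10.74, 9.87 and 10.49 in CL + VE livers. In CL livers it read 12.07, 11.51, 11.49, 11.73 and 10.91. The groups did not overlap, and the CL + VE level was 42.4% of the CL level on the linear scale, −1.24 on the log2 scale (SE 0.25, adjusted p = 0.133). Its mean was 11.47 in CL + AX livers and 11.30 in NC livers, close to the CL mean. The remaining 19 measured genes of the lipid droplet and lipolysis list had no unadjusted p under 0.05, in either direction.

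Inhbe, a liver-derived activin subunit, read 8.03, 7.47, 8.11, 7.72 and 8.10 in CL + VE livers, against 9.25, 8.89, 8.62, 9.19 and 8.46 in CL livers. It did not overlap either, with −0.99 on the log2 scale (SE 0.23, adjusted p = 0.195). Fads6 had −0.47, Tmem170b −0.44, Lcor, a nuclear receptor corepressor, −0.40, the kinase Taok3 −0.39 and Gnaq, a G protein α subunit, −0.44, on the log2 scale. None of these 5 overlapped between groups, and their adjusted p ran from 0.133 to 0.199. The other probe set of Fads6 and 2 of the 4 of Taok3 had the opposite sign, while 5 of the 7 of Gnaq had the sign given.

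The 10 higher genes had log2 fold changes of 0.27 to 0.52. Timm44, part of the motor that pulls proteins into the mitochondrial matrix, read 9.44, 9.54, 9.27, 9.24 and 9.57 in CL + VE livers, against 9.21, 9.03, 9.01, 8.81 and 9.07 in CL livers. The lowest CL + VE liver lay just above the highest CL liver, and the log2 fold change was 0.39 (SE 0.08, adjusted p = 0.133). All 3 probe sets of Timm44 had this sign, and its NC mean was 9.91.

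Akt2 encodes a kinase of insulin signalling and was also chosen for qPCR. On the arrays it read 8.54, 8.55, 8.48, 8.53 and 8.32 in CL + VE livers and 8.20, 8.14, 8.25, 8.13 and 8.23 in CL livers. Again no value overlapped, although replicate 5 was the lowest of the CL + VE livers, and the log2 fold change was 0.29 (SE 0.07, adjusted p = 0.19). Of its 3 probe sets 2 had this sign, and the NC mean was 8.78. Utp3, a nucleolar factor for ribosomal RNA processing, had a log2 fold change of 0.52, Tnrc18 0.48, Hectd4 0.43, D5Ertd579e 0.42, Cep170b 0.40, the ubiquitin ligase Ubr4 0.39, the protease Nrd1 0.29 and D8Ertd738e 0.27. Only 1 of the probe sets of D5Ertd579e, D8Ertd738e and Tnrc18 had this sign, of 2, 2 and 3. Of these 8 genes only D5Ertd579e overlapped between groups, in CL + VE replicate 4. The adjusted p of the 10 higher genes lay between 0.133 and 0.195.

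Immediate early genes stood out among the 37 lists from general knowledge by their count. Of 31 measured, 9 were lower in CL + VE livers at an unadjusted p under 0.05 and 0 were higher, beside 2.70% lower and 4.85% higher over all genes, so that 29.0% of the list was lower. No member passed the adjusted p. The median log2 fold change of the list was −0.35 relative to the median of all genes (0.031), or −0.59 without CL + VE replicate 5, and 25 of 31 members were below 0, beside 44% of all genes. The list was seen in earlier results of these data, so its count is a description of these 10 livers.

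Fos and Jun encode partners that pair as the AP-1 transcription factor. Fos read 7.63, 6.89, 8.31, 8.44 and 9.09 in CL + VE livers, against 9.38, 10.73, 10.64, 10.53 and 11.49 in CL livers. The groups did not overlap, the gap between CL + VE replicate 5 and CL replicate 1 being the narrowest, and the CL + VE level was 17.9% of the CL level (log2 fold change −2.48, SE 0.74, adjusted p = 0.343). Jun read 9.86, 9.84, 9.80, 9.63 and 9.94 in CL + VE livers, against 9.94, 11.07, 11.20, 11.22 and 10.78 in CL livers. CL replicate 1 stood with the CL + VE livers and the other 4 CL livers lay well above, giving −1.03 (SE 0.38, adjusted p = 0.492).

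Dusp1 encodes a phosphatase that switches off MAP kinases. It read 9.98, 9.47, 9.95, 9.60 and 10.77 in CL + VE livers, against 10.55, 11.51, 11.38, 11.34 and 11.35 in CL livers. Only CL + VE replicate 5 and CL replicate 1 overlapped, and the log2 fold change was −1.27 (SE 0.35, adjusted p = 0.293). Zfp36l1, a relative of Zfp36l2, read 10.97, 11.22, 11.06, 11.07 and 11.47 in CL + VE livers, against 11.62, 11.68, 11.73, 11.44 and 11.69 in CL livers. Replicate 5 of CL + VE lay just above the lowest CL liver, and the log2 fold change was −0.47 (SE 0.15, adjusted p = 0.359).

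The other 5 are given by their log2 fold changes. The orphan nuclear receptor Nr4a1 had a log2 fold change of −0.79, the antiproliferative gene Btg2 −0.96, Ier5 −0.54 and the zinc finger repressor Klf10 −0.57, with Zfp36l2 described above. Across the 9 genes, CL + VE replicate 5 was the highest CL + VE liver in 7 and CL replicate 1 was the lowest CL liver in 7. Over all 31 members the same 2 livers held those places in 17 and 23 genes. For some genes these replicate numbers held the same places in other diets. For Dusp1 replicate 5 was also the highest CL + AX and NC liver. For Fos it was the highest CL and CL + AX liver but not the highest NC liver, and replicate 1 was also the lowest CL + AX liver. Without CL + VE replicate 5, 12 of 31 were lower at an unadjusted p under 0.05, and without CL replicate 1 there were 13, while the lowest count on leaving out 1 liver was 6, without CL replicate 3. With the Actb 3′/5′ ratio of each array as a covariate only 3 of 31 were lower and 2 were higher. That ratio did not overlap between the diets, so in this fit the ratio and the diet cannot be told apart.

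**Figure D2:**
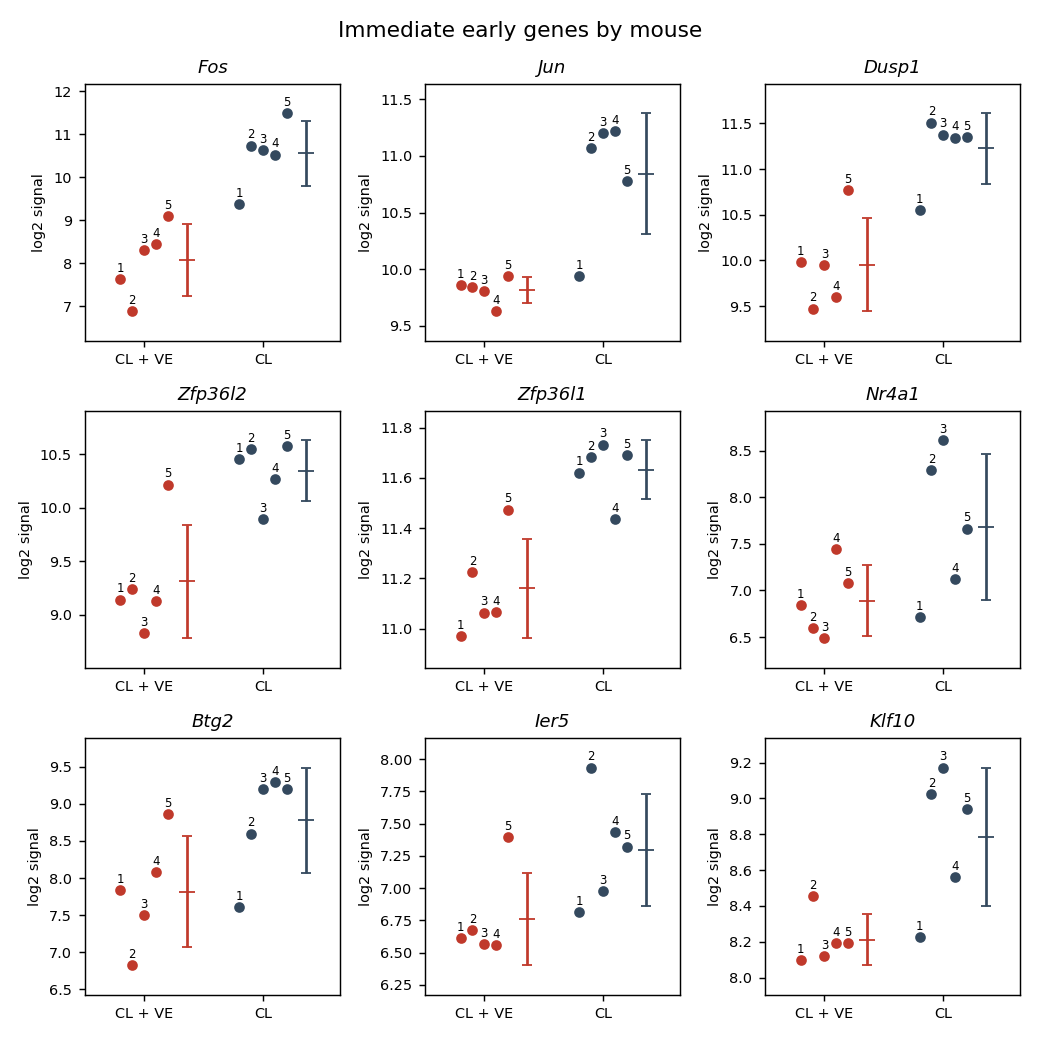
Log2 signal of the 9 immediate early genes at an unadjusted p under 0.05, 1 panel per gene, each point a liver numbered by replicate, with mean and SD beside the points (CL + VE red, CL dark). Fos does not overlap between groups. In Dusp1, Zfp36l1, Zfp36l2 and Btg2 replicate 5 is the highest CL + VE liver, and in Fos, Jun, Dusp1 and Btg2 replicate 1 is the lowest CL liver.

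The other supplement can be set beside these values. Fos averaged 8.07 in CL + VE, 10.55 in CL, 9.60 in CL + AX and 8.59 in NC livers. Set directly against CL + AX, 11 of 31 members were lower in CL + VE and 3 were higher at an unadjusted p under 0.05. Over all genes 3.66% were lower and 6.59% higher, and no member passed the adjusted p. The Actb 3′/5′ ratio and the median deposited signal did not overlap between these groups, and their part in the differences was not tested. Over the whole array, CL + VE against CL + AX gave 1 probe set past the adjusted p in limma, 0.00222% of those tested. It names Tlcd4 (log2 fold change −1.22, adjusted p = 0.0456) but is not the brightest probe set of that gene. Read from brightest probe sets, 0 of 18193 genes passed. Tlcd4 lies outside the rule for named genes.

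The stretches before the start of transcription of 4 of these genes are given to show where the half-site TGACG of the cyclic AMP response element lies. They are from the RefSeq promoters of build GRCm38.p6, 5′ to 3′ on the gene's strand, and capitals mark TGACG on either strand (CGTCA), so that TGACGTCA holds it on both strands. Nr4a1 has 4 matches in the 250 bases before its start, of which the stretch shown holds 2.
Dusp1, chr17:26508596-26508675, minus strand, 203 to 124 bases before the start: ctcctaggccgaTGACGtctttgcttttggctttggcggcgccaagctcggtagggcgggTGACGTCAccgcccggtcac
Btg2, chr1:134079302-134079333, minus strand, 178 to 147 bases before the start: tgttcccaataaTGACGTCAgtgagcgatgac
Nr4a1, chr15:101266601-101266690, plus strand, 245 to 156 bases before the start: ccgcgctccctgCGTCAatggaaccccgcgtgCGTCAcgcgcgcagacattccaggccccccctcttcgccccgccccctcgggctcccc
Fos, chr12:85473749-85473840, plus strand, 141 to 50 bases before the start: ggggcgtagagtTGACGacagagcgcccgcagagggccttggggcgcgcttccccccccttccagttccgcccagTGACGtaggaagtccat

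Dusp1 and Btg2 hold the full TGACGTCA, while Fos and Nr4a1 hold only the half-site. Of 24 list members found in the RefSeq table, 13 had TGACG in the 250 bases before a start, beside 19.8% of 27025 genes, and 2 had TGACGTCA, beside 1.77%. Of the 9 lower members 7 were in the table, and 4 of them had TGACG. The AP-1 letters TGANTCA, on either strand, occurred in 1 of the 24 list members and in 7.82% of all genes. That member was Zfp36l1, with TGATTCA in capitals in the stretch chr12:80113124-80113154, minus strand, 141 to 111 bases before the start: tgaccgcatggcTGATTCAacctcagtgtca. A match is a run of letters and not a measured binding site.

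Of the vitamin E transport and catabolism list, 3 of 28 measured genes were higher at an unadjusted p under 0.05, 10.7% beside 4.85% of all genes. None was lower, and none passed the adjusted p. At or above the median signal, where 26 of the 28 lay, 5.91% of genes were higher. Lrp1, an endocytic receptor for lipoprotein remnants, read 10.91, 10.68, 10.67, 10.77 and 10.73 in CL + VE livers, against 10.46, 10.60, 10.34, 10.35 and 10.36 in CL livers. The groups did not overlap, and the log2 fold change was 0.33 (SE 0.08, adjusted p = 0.201). Its other probe set, at a mean log2 signal of 7.18, went the opposite way, with −0.56 (unadjusted p = 0.0108 in limma). Abcc3, an exporter of conjugates into the blood, read 10.98, 11.01, 10.98, 10.82 and 10.92 in CL + VE livers, against 10.70, 10.73, 10.83, 10.64 and 10.58 in CL livers, with 0.24 (SE 0.07, adjusted p = 0.318). Its groups touched only between CL + VE replicate 4 and CL replicate 3. Sec14l4, of the family of tocopherol-binding SEC14-like proteins, had 0.37 (SE 0.11, adjusted p = 0.357).

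Other genes of the list, with the best known ties to vitamin E, had log2 fold changes between 0.0056 and 0.21. Ttpa averaged 13.11 ± 0.07 in CL + VE livers and 13.10 ± 0.10 in CL livers, a log2 fold change of 0.0056 (SE 0.06). Cyp4f14, mouse counterpart of the human tocopherol hydroxylase CYP4F2, had 0.14 (SE 0.19) and its neighbour Cyp4f15 0.21 (SE 0.14). The tocopherol-associated protein gene Sec14l2 had 0.13 (SE 0.08), and the lipoprotein receptor Scarb1, which also takes up vitamin E, 0.035 (SE 0.09). The whole list had a mean log2 signal of 9.91 ± 0.05 in CL + VE livers and 9.85 ± 0.07 in CL livers, and its median relative to all genes was 0.0027, running from −0.026 to 0.040 on leaving out 1 liver.

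**Figure D3:**
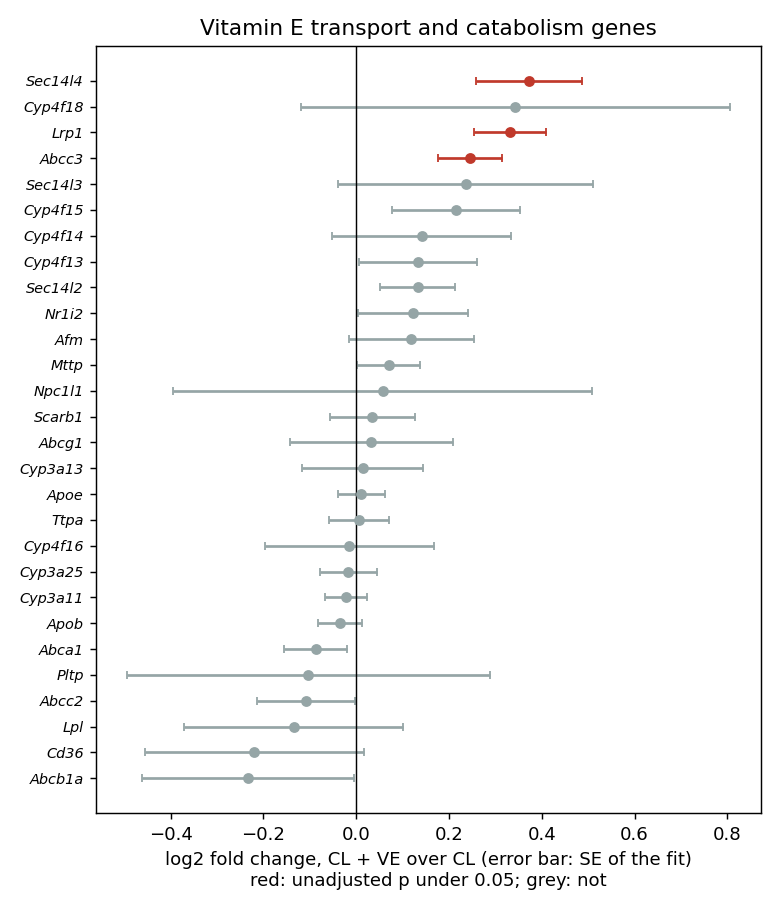
Log2 fold change of CL + VE over CL for the 28 measured genes of vitamin E transport and catabolism, with the SE of the fit, red where the unadjusted p was under 0.05. Sec14l4, Lrp1 and Abcc3 are the 3 red genes, and Ttpa lies at 0.0056.

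Antioxidant enzymes and NFE2L2 targets gave 5 higher and 1 lower of 35, that is 14.3% and 2.86%, beside 4.85% and 2.70% of all genes. The lower one was Gclm, the modifier subunit of the enzyme that starts glutathione synthesis. It read 11.15, 11.00, 11.08, 10.90 and 11.08 in CL + VE livers, against 11.55, 11.28, 11.49, 11.25 and 11.46 in CL livers. The groups did not overlap, with −0.36 on the log2 scale (SE 0.09, adjusted p = 0.213) and the same sign in both probe sets, and its NC mean was 10.90. The catalytic subunit Gclc had −0.29 (SE 0.17, adjusted p = 0.739), and 0.040 in its other probe set, which was nearly as bright. The letters TGACNNNGC of the antioxidant response element, on either strand, lie before the start of Gclm, where they are printed in capitals because it is the member with the smallest p of its list (chr3:122245411-122245443, plus strand, 146 to 114 bases before the start): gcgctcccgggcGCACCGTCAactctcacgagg. These letters occurred in 4 of 30 list members in the table and in 11.5% of all genes.

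The 5 higher antioxidant genes had small differences. Selenow, a small selenoprotein, had a log2 fold change of 0.37 and the sulfiredoxin gene Srxn1 0.32. Park7, encoding the redox-sensitive protein DJ-1, had 0.18 without overlap between groups. Msra, which repairs oxidized methionine, had 0.15 and the glutaredoxin Glrx5 0.13. Their adjusted p ran from 0.335 to 0.653, with Msra and Glrx5 below 0 in the signals as deposited. The median of the list was 0.020 relative to all genes, and −0.011 without CL + VE replicate 5.

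Of 74 mitochondrial ribosomal proteins, which translate the few proteins encoded by mitochondrial DNA, 11 were higher at an unadjusted p under 0.05, 14.9% beside 4.85% of all genes, and 1 was lower. Above the median of all genes lay 51 of them, and 60 were above 0, as were 56% of all genes. Their mean log2 signal was 8.86 ± 0.06 in CL + VE livers and 8.79 ± 0.07 in CL livers, and replicate 5 at 8.76 stood below the other CL + VE livers, which lay between 8.88 and 8.89. Relative to all genes the median of the list was 0.040, and 0.014 without CL replicate 2. Mrps5 read 7.75, 7.71, 7.86, 7.63 and 7.52 in CL + VE livers, against 7.45, 7.23, 7.39, 7.12 and 7.49 in CL livers, without overlap (log2 fold change 0.36, SE 0.11, adjusted p = 0.342, with 3 of 5 probe sets of this sign). Mrpl48 had 0.30 (SE 0.08, adjusted p = 0.253), and the lower one, Mrpl18, had −0.33 without overlap (SE 0.08, adjusted p = 0.205).

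Respiratory complex I gave 4 higher and 1 lower of 34, and 24 of the 34 lay above the median of all genes. Complexes II to V gave 5 higher and 1 lower of 39. The shares higher were 11.8% and 12.8%, beside 4.85% of all genes and 5.91% of genes at or above the median signal. Cyc1, the cytochrome c1 of complex III, had a log2 fold change of 0.18 and Cox5b of complex IV 0.13, both without overlap, although 2 of the 6 probe sets of Cox5b had the opposite sign and its value was −0.0099 in the signals as deposited. The medians of both lists, 0.024 and 0.011 relative to all genes, were 0.093 and 0.105 with any scaling by 1 factor per array, and that of complexes II to V was −0.0064 without CL + VE replicate 2.

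Protein synthesis was examined by the study as EIF2 signalling. Of 46 cytosolic ribosomal proteins read alone, 1 was higher and 0 were lower, with Rps15 at 0.24 (SE 0.06, adjusted p = 0.272). Its members had a median of −0.029 relative to all genes, and of 0.056 with scaling by 1 factor per array. Translation initiation and elongation factors gave 4 higher and 2 lower of 42, 9.52% and 4.76%, beside 4.85% and 2.70% of all genes. Eif2b4, a subunit of the exchange factor that recharges EIF2, had 0.23. Eif3a, the largest subunit of EIF3, had −0.35 without overlap and the same sign in all 4 probe sets (adjusted p = 0.303). The second brightest probe set of Eif3a had only −0.0073.

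Among EIF2 kinases and ATF4 targets, 1 was higher and 2 were lower of 28, 3.57% and 7.14%, beside 4.85% and 2.70% of all genes. The heme-regulated kinase Eif2ak1 read 7.66, 7.53, 7.55, 7.57 and 7.29 in CL + VE livers, against 7.12, 7.16, 7.22, 7.11 and 7.27 in CL livers, without overlap (log2 fold change 0.35, SE 0.09, adjusted p = 0.285, with 3 of 5 probe sets of this sign). The ER stress kinase Eif2ak3 had −0.35 and was at 8.32 in CL + VE replicate 5, against 7.29 to 7.51 in the other CL + VE livers. Fgf21, a hormone secreted by the stressed or fasting liver, had −0.90 (SE 0.37, adjusted p = 0.574). ER chaperones and ER-associated degradation gave 1 higher and 3 lower of 34, with a median of −0.038 that was −0.084 without CL replicate 2 and 0.018 without CL replicate 5. Proteasome subunits gave 3 higher and 1 lower of 40, 7.5% and 2.5%. Cytosolic heat shock chaperones gave 1 and 1 of 26, 3.85% each, and lysosomal proteins 3 and 1 of 37, 8.11% and 2.70%.

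The medians of the 6 lists of lipid and bile acid metabolism lay between −0.043, for apolipoproteins, and 0.0050, for bile acids, relative to all genes. With scaling by 1 factor per array the first was 0.080, and the second was −0.064 without CL replicate 2. Fatty acid synthesis had 3 higher and 0 lower of 26, 11.5% higher beside 4.85% of all genes. Acaca, the carboxylase that makes malonyl-CoA, had a log2 fold change of 0.36 and the triglyceride-forming enzyme Dgat1 0.27 without overlap. Scd1, a desaturase also chosen for qPCR, averaged 13.53 ± 0.02 in CL + VE livers and 13.51 ± 0.05 in CL livers. Its dimmer probe set had a log2 fold change of −0.60 (unadjusted p = 0.00113 in limma), against 0.018 for the brighter one. Cholesterol synthesis had 2 higher, 9.52%, and 0 lower of 21, Nsdhl at 0.33 and Dhcr7 at 0.38. Their NC means, 8.15 and 8.22, lay above both diet groups.

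Fatty acid oxidation and PPARA targets had 3 higher and 3 lower of 37, 8.11% each, beside 4.85% and 2.70% of all genes. The nuclear receptor Ppara read 10.22, 10.15, 10.27, 10.20 and 10.22 in CL + VE livers, against 10.60, 10.14, 10.32, 10.67 and 10.60 in CL livers. The CL livers were spread over both sides, and the log2 fold change was −0.26 (SE 0.10, adjusted p = 0.565). Angptl4, a PPARA target that inhibits lipoprotein lipase, had −0.25 (SE 0.12, adjusted p = 0.644), and Cpt1a, the gate of mitochondrial fatty acid uptake, −0.15 (SE 0.11, adjusted p = 0.807). Bile acid synthesis and transport had 1 higher of 28, glycolysis and gluconeogenesis 3 of 22, and apolipoproteins 1 lower of 23.

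Drug-metabolizing cytochromes P450 gave 2 higher of 31, 6.45% beside 4.85% of all genes. Cyp1a2 had 0.43, where CL + VE replicate 5 read 13.39 and the other CL + VE livers 12.01 to 12.47. Phase II enzymes gave 3 higher of 41, 7.32%, with the glutathione transferase Gstm4 at 0.36 (SE 0.11, adjusted p = 0.387). Acute phase and complement genes gave 2 higher of 38, 5.26%. Interferon-stimulated genes gave 2 higher, 6.25%, and 1 lower, 3.1%, of 32, beside 4.85% higher and 2.70% lower over all genes.

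Genes of inflammation and scarring had medians below 0 whose size and sign depended on single livers, CL replicate 2 and CL + VE replicate 5. The 45 inflammatory cytokines and chemokines had 0 higher and 2 lower, 4.44% lower beside 2.70% of all genes. Above 0 lay 9 members. The list's median was −0.15 relative to all genes, −0.019 without CL replicate 2 and −0.29 without CL + VE replicate 5. Il1b, the cytokine interleukin 1β, read 6.79, 6.09, 6.28, 5.73 and 5.98 in CL + VE livers, against 6.77, 7.37, 7.34, 6.59 and 6.75 in CL livers. Only CL + VE replicate 1 reached the CL range, and the log2 fold change was −0.79 (SE 0.20, adjusted p = 0.231), with an NC mean of 5.50. Socs3, an inhibitor of cytokine signalling, had −0.79 as well but read 10.02 in CL + VE replicate 5 and 7.57 to 7.83 in the other CL + VE livers (adjusted p = 0.641).

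Of 29 macrophage and Kupffer cell markers, none had an unadjusted p under 0.05. The list's mean log2 signal was 7.86 to 9.09 in CL + VE livers and 8.07 to 9.58 in CL livers, against 5.80 to 7.06 in NC livers. Its median was −0.13 relative to all genes, 0.060 without CL replicate 2 and −0.28 without CL + VE replicate 5. In whole liver fewer cells of a type and less RNA per cell cannot be told apart. Fibrosis and stellate cell markers had 2 lower of 35, 5.71% beside 2.70% of all genes. Their median was −0.17, or 0.042 without CL replicate 2 and −0.42 without CL + VE replicate 5. Ccn1, a matrix protein that is also an early response gene, read 8.15, 6.61, 7.31, 7.12 and 7.63 in CL + VE livers, against 8.22, 8.58, 8.91, 8.75 and 8.66 in CL livers. It did not overlap, with −1.26 on the log2 scale (SE 0.45, adjusted p = 0.478) and the same sign in all 4 probe sets. The proteoglycan Dcn had −0.43 and read 12.12 in CL + VE replicate 5, within the CL range of 11.77 to 12.24.

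CL + VE replicate 5 and CL replicate 2 were the livers with the highest fibrosis score in their groups. The mean log2 signal of the list was 8.24 in the first, against 7.00 to 7.36 in the other CL + VE livers, and 8.16 in the second, against 7.14 to 7.47 in the other CL livers. Lymphocyte markers had 1 higher of 22 and a median of −0.22, or −0.0065 without CL replicate 2 and −0.34 without CL replicate 5, and 11 of the 22 reached the median signal. Neutrophil markers had none of 19 and −0.25, or 0.075 without CL replicate 2, −0.022 without CL replicate 4 and −0.44 without CL + VE replicate 5, and 12 of the 19 reached it. None of 22 endothelial, 13 bile duct and 8 red blood cell markers had an unadjusted p under 0.05, and none of 36 cell cycle genes. Apoptosis genes gave 3 higher and 2 lower of 34, 8.82% and 5.88%, beside 4.85% and 2.70% of all genes. Circadian clock genes gave 1 lower of 18, 5.56%.

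**Figure D4:**
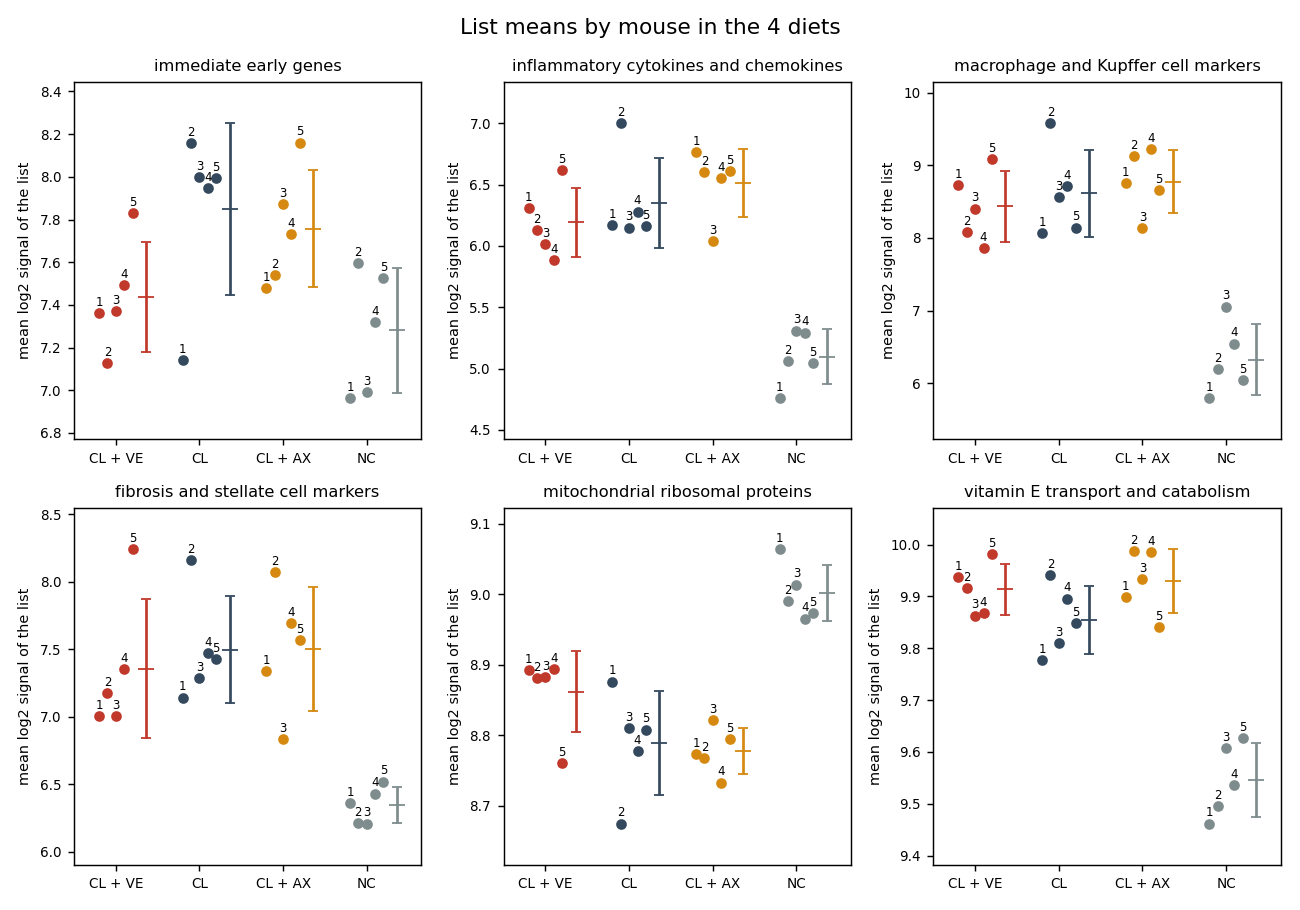
Mean log2 signal of 6 gene lists in each liver, numbered by replicate, with mean and SD beside the points, for the CL + VE, CL, CL + AX and NC groups. CL + VE replicate 5 is the highest CL + VE liver for immediate early genes, cytokines, macrophage and fibrosis markers and the lowest for mitochondrial ribosomal proteins.

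**Figure D5:**
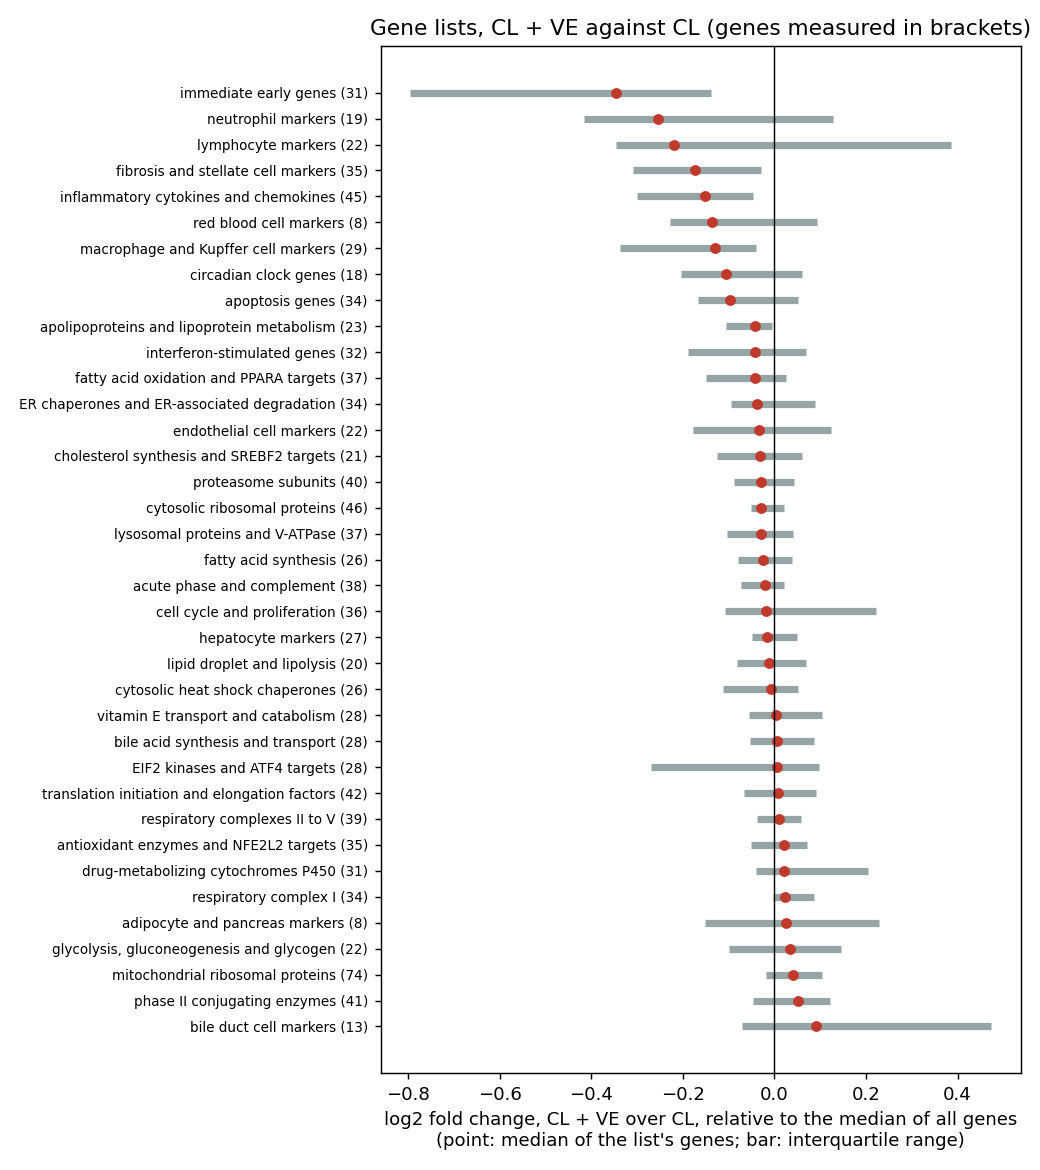
Median (point) and interquartile range (bar) of the log2 fold change of CL + VE over CL, relative to the median of all genes, for 37 gene lists, with the number of genes measured in brackets. Immediate early genes lie farthest below 0, at −0.35, followed by neutrophil, lymphocyte, fibrosis and cytokine lists.

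The lists that the study drew from these same arrays are not independent evidence of a direction. Of 34 measured genes that it lists as targets of RICTOR, a component of mTOR complex 2, 10 were higher and 0 were lower at an unadjusted p under 0.05, beside 4.85% and 2.70% of all genes, and 29 lay above the median of all genes. All 34 were at or above the median signal, where 5.91% of genes were higher. These listed targets are ribosomal, respiratory, proteasome and V-ATPase subunits, and include Rps15, Cyc1 and Cox5b. Of 33 listed targets of NFE2L2, 11 were higher and 1, Il1b, was lower. Listed IL6 targets had 1 higher and 3 lower of 6, Maf among the lower ones, listed LEP targets 3 and 2 of 9, listed MYC targets 1 and 1 of 9 and listed ARNT targets 1 and 0 of 2. Abcc3 stands in the IL6, LEP and NFE2L2 lists. Of 16 regulators that the study names, 1 was higher and 1, Ppara, was lower, and of its 3 qPCR genes analysed here, Akt2 was higher.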

How the data were processed

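Liver RNA of 20 mice was labelled with biotin and hybridized to 1 Affymetrix whole-genome mouse array per animal. The authors computed the deposited intensity values with MAS5, 1 linear signal per probe set. They differ in level between arrays and had not been scaled to a common target, and the order of hybridization is not given in the sources used here. After removal of 64 control probe sets, 45037 were quantile normalized on the log2 scale. All 20 arrays were fitted in limma 3.58.1 under R 4.3.3, in 1 model of the 4 diets with 16 residual degrees of freedom and a mean-dependent variance prior. Every p of a gene or probe set is from this moderated test unless the methods' t-test (Welch) is named, and the Benjamini-Hochberg adjustment ran over all 45037, with 0.05 as threshold. Nothing in the sources says more of the mice than that each array is a separate animal, so p-values measure the spread between these animals. The number of arrays limits the precision.

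Platform annotation gave 1 gene for 34945 probe sets, several for 932 and none for 9160. Of the probe sets that name a gene alone, the brightest stood for it, which gave 18193 genes, and list genes without such a probe set were not analysed here. A probe set whose ID ends in x_at, as for Timm44, Selenow, Cox5b, Socs3, Ccn1 and the Tlcd4 probe set named, may also bind related transcripts. The 37 lists from general knowledge and 8 lists from the study, and the members, were chosen with earlier results of these data known. Genes were named by rule: the 10 smallest p in each direction at or above the median signal, up to 4 members of each list, and the vitamin E, qPCR and study lists. Of 67 genes examined by name, 59 follow the rule and 8 (Jun, Nr4a1, Btg2, Ier5, Klf10, Gclc, Srxn1, Glrx5) were added after values were seen, as was Tlcd4. Array controls were compared by exact two-sided permutation over all splits of 5 against 5. The fit was tested on simulated data. Promoters are 250 bases before RefSeq starts. Alternatives were other scalings, an added pseudocount of 16, a filter on dim probe sets, 10 arrays only, the methods' t-test, no variance trend, array weights, a replicate block, the Gapdh and (added after seeing the data) Actb 3′/5′ ratio as covariate, the mean of a gene's probe sets and leaving out each liver.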

Additional observations from a re-analysis of the deposited data

Results flagged for a closer look

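In 20 of the groups of 5 values examined, 7.94% of them, 1 liver stood far from the other 4. Chance flags about 1 such group in 20. CL + VE replicate 5 was that liver in 8 of them. It was high for Socs3 (10.02, others 7.57 to 7.83), Dcn (12.12, others 11.21 to 11.44), Eif2ak3 (8.323, others 7.29 to 7.51), Ier5 (7.396, others 6.56 to 6.67), the mean of fibrosis markers (8.242) and the Dap 3′/5′ log2 ratio of the labelling controls (1.807, others 0.773 to 1.04). It was low for the means of mitochondrial ribosomal proteins (8.761) and of bile acid genes (10.15, others 10.40 to 10.50).

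Other CL + VE livers stood apart in 3 cases. Replicate 3 was high for Nrd1 (8.475) and low for the mean of circadian clock genes (6.502, others 6.93 to 7.02), and replicate 2 was high for Klf10 (8.455).

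Among CL livers, replicate 1 was low for Dusp1 (10.55) and for the mean of immediate early genes (7.141, others 7.95 to 8.16). Replicate 2 was high for Dcn (12.24), for the means of cytokines (6.999, others 6.15 to 6.28) and of cell cycle genes (6.162, others 5.09 to 5.38), and low for 18S rRNA relative to the array's median (6.312, others 7.41 to 7.71). Replicate 5 was high for Lcor (9.049) and low for the Phe 3′/5′ log2 ratio (0.9718), and replicate 3 was high for Gnaq (8.481).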

How the results depend on the processing

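Counts past the adjusted p in limma were 0 higher under every alternative and 0 lower under most. The exceptions had 26 lower with the signals as deposited and 3 with only the 10 CL + VE and CL arrays. Those 3 included a probe set of Ccn1 that was not its brightest. Array weights gave 2 lower (Zfp36l2 among them) and the replicate block 3 (Zfp36l2 among them, adjusted p = 0.0156). Leaving out 1 liver gave 0 to 2, the 2 without CL + VE replicate 5. Maf passed only with the signals as deposited (−0.75, adjusted p = 0.0424). Without adjustment the signals as deposited gave 298 higher and 4998 lower, and bright probe sets alone, being fewer, 1075 and 1108. Immediate early genes lower at an unadjusted p numbered 3 with the Actb ratio as covariate and 6 to 13 otherwise, and their median ran from −0.59 to −0.31 on leaving out 1 liver. The labels share replicate numbers and do not say that mice were paired. Deviations of same-numbered CL + VE and CL livers correlated between −0.2 and 0.123 over bright probe sets. For some genes the number went with the level, and replicate 5 was the highest liver of every diet for Zfp36l2 and Socs3. The mean of immediate early genes was lowest in replicate 1 of CL, CL + AX and NC, and in replicate 2 of CL + VE. With the replicate block 13 immediate early genes were lower. Whether same-numbered mice were handled together was not tested. Scaling by 1 factor per array, or none, gave medians relative to all genes of 0.088 for vitamin E genes, 0.056 for cytosolic ribosomal proteins, 0.093 for complex I, 0.105 for complexes II to V, 0.024 for the proteasome, 0.087 for glycolysis, 0.080 for apolipoproteins, 0.066 for acute phase genes and 0.113 for hepatocyte markers. For study lists they were 0.129 (RICTOR), 0.172 (ARNT), 0.112 (NFE2L2) and 0.131 (qPCR genes). The mean of all probe sets gave 0.055 for MYC targets and −0.25 for qPCR genes, and leaving out 1 liver gave MYC targets 0.051 to 0.123. Signs turned with the signals as deposited for Sec14l2 (−0.044), Ttpa (−0.10), Cyp4f14 (−0.077), Scarb1 (−0.15), Msra (−0.042), Glrx5 (−0.033), Cox5b (−0.0099) and Scd1 (−0.067), with the Gapdh covariate for Ttpa (−0.025), and with the Actb covariate for Ttpa (−0.079) and Scarb1 (−0.029). On leaving out 1 liver Ttpa ran from −0.030 to 0.038, Scarb1 from −0.018 to 0.087 and Cyp4f14 from −0.019 to 0.25. The causes were not tested.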
